A study of Brassica juncea with 18 samples.

Results

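In the deposited expression table of cold-stressed Indian mustard (Brassica juncea) siliques, 5 transcripts were named as amylases, against 13337 other transcripts. They were chosen by name, as every transcript whose best database hit contained alpha-amylase, beta-amylase or BAM followed by a number and did not contain inhibitor. The rule matched 9 transcripts. In 4 of them, a thionin, a gibberellin 3 oxidase 1 and 2 isoforms of gibberellin 2 oxidase 1, the letters BAM stood only inside a database accession, and these were left out. The 5 amylases were 3 β-amylase and 2 α-amylase transcripts, each from a different unigene, which is the set of isoforms that the assembler assigned to 1 gene.

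Plants of the variety Varuna were raised in the field and pollinated by hand with pollen of the same cultivar. Siliques were taken every 5 days from 5 to 30 days after pollination (DAP), which gave 6 stages, in 3 states, and each of the 18 combinations was sequenced as 1 library. For the cold states, cut branches were kept lit and in water at 4 °C, either for 6 h or for 12 h, and for the control state, cut branches stood in water in the field. Whole siliques were used, so pod wall, seed coat, endosperm and embryo were measured together, and a change in the share of a cell type cannot be told apart from a change in RNA per cell. The sources used here do not give the hour of harvest of each library, so cold cannot be told apart from time of day, nor from the move out of the field. No combination of stage and duration was replicated among the libraries. The 6 stages therefore served as the replicates of a cold duration, and no test was made for a single stage.

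Starch is the glucose polymer that plastids store. α-Amylases cut bonds inside the glucan chains, while β-amylases remove maltose units from the chain ends, and other enzymes remove the branches. In Arabidopsis leaves, plastid β-amylases provide most of the maltose released from starch at night, and the transcript of a plastid β-amylase is known to increase in cold. Several plant β-amylase genes encode proteins with little or no activity, so the name alone does not establish that a transcript encodes a working enzyme.

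The named transcripts differed in how much of a gene they covered. The putative β-amylase c70856_g2_i2 was 1396 bp long, matched its best hit over 267 amino acids and carried the glycosyl hydrolase family domain of β-amylases. The putative β-amylase c30147_g1_i1 had a best hit of the same name, but it was a fragment of 224 bp that matched over 74 amino acids. The third, named after BMY3, was c59835_g1_i1, whose 607 bp matched over only 72 amino acids. α-Amylase 1, a secreted enzyme in Arabidopsis, was represented by c68132_g1_i1, which was 1657 bp long, matched over 414 amino acids and carried the α-amylase catalytic and C-terminal domains. α-Amylase-like 2, in Arabidopsis a form outside the plastid, was represented by c130067_g1_i1, a fragment of 342 bp. In the whole annotated assembly of 133641 transcripts, 48 had an amylase name, from 26 unigenes. The other 43 were not analysed here for expression, since the expression table holds only transcripts that the study had called different between some pair of its libraries. Among those 43 were the 10 transcripts named β-amylase 3 and the 3 named putative chloroplast-targeted β-amylase. The assembly also held 14 transcripts named after BMY3, from 8 unigenes, and 4 named α-amylase-like 2, from 2 unigenes. The expression table held 1 of each, and below these 2 names mean those single transcripts.

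In cold, 2 of the 3 β-amylase transcripts of the table rose many-fold at both durations, and neither α-amylase transcript passed the test at either one. The table was selected from these same libraries, so a cold change could itself bring a transcript into it. Tests and counts therefore describe selected transcripts and give no share for the 48 amylase-named transcripts of the assembly. The third β-amylase, BMY3, was lower at 6 h by a small amount. With limma across the whole table, 2 of the 5 amylases were higher at 6 h, where 12.6% of all transcripts were, and 1 was lower, where 9.21% were. An unadjusted p under 0.05 at 6 h was found for 4 of the 5 and for 31.1% of all transcripts. At 12 h the counts were 2 higher, against 10.2% of all transcripts, and 0 lower, against 11.2%, and 2 of the 5 had an unadjusted p under 0.05, against 32.2%. The median log2 change of the 5 was 0.63 at 6 h and 0.25 at 12 h, while the median over all transcripts was near 0 at both durations (-0.0016 and -0.0427).

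**Figure D1:**
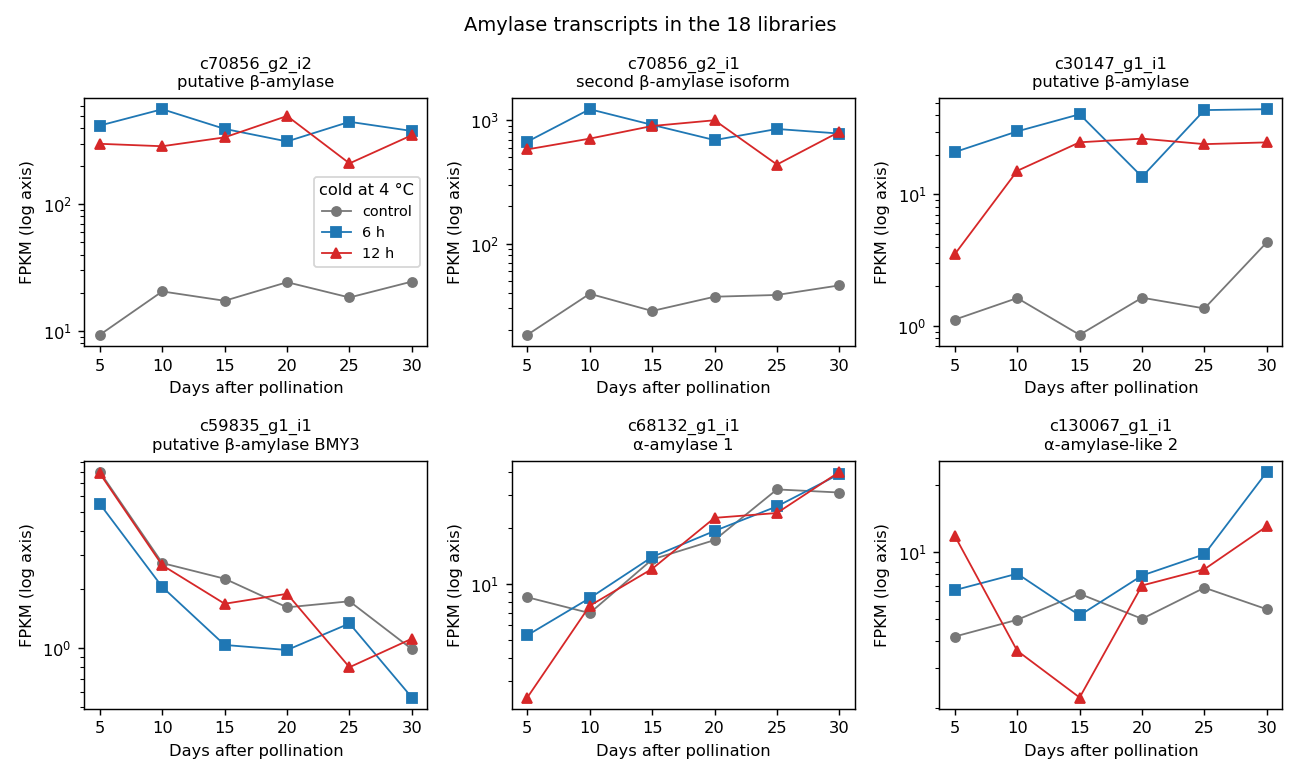
Level of the 5 amylase transcripts and of the second isoform of c70856_g2 in each library, in FPKM on a log axis (each panel has its own range), against days after pollination; each point is 1 library and lines join libraries of 1 duration. The cold libraries of c70856_g2_i2 lie between 210.1 and 562.6 FPKM and its controls between 9.30 and 24.5 FPKM. The 3 lines of α-amylase 1 each end higher than they began.

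The largest response among the members was that of the β-amylase c70856_g2_i2. Its level is given in FPKM, fragments scaled by transcript length and by library size, a scale per length on which transcripts can be compared. In the control siliques it was 9.30, 20.5, 17.3, 24.2, 18.3 and 24.5 FPKM from 5 to 30 DAP. After 6 h of cold the same stages held 418.1, 562.6, 393.4, 313.1, 447.5 and 378.6 FPKM. After 12 h they held 299.9, 287.0, 337.2, 497.4, 210.1 and 350.9 FPKM. Every cold library was above every control library. The ratio of cold to control FPKM at a stage was lowest at 12.9 and highest at 45.0 after 6 h, with a median of 23.6, and ran from 11.5 to 32.2 after 12 h, with a median of 16.9. On the log2(FPKM + 1) scale used for testing, the mean increase over the 6 stages at 12 h was 4.06 (SE 0.23, 95% interval 3.57 to 4.55, limma adjusted p = 1.3e-07), close in size to that at 6 h, whose 95% interval was 3.94 to 4.92. Ordered by their log2 increase, c70856_g2_i2 was number 8 of all transcripts tested at 6 h and number 13 at 12 h. The paper also measured this transcript by quantitative PCR on independent biological replicates, and reported it as high in cold at all stages.

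The smallest ratio at 6 h belonged to the 20 DAP stage and the smallest at 12 h to the 25 DAP stage. The largest at both durations belonged to 5 DAP, where the control level was the lowest of the 6. The drop from 6 h to 12 h was seen at every stage but 20 DAP, where 12 h was higher, and the mean difference of -0.37 (SE 0.23, 95% interval -0.86 to 0.12, limma adjusted p = 0.544) did not pass the test. The increase was 4.55 (SE 0.26) on the log2 scale over the early stages of 5 to 15 DAP and 3.94 (SE 0.26) over the late stages of 20 to 30 DAP. The difference between these phases, -0.62 with a 95% interval of -1.44 to 0.21, did not pass either (limma adjusted p = 0.965).

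Libraries also differed in the share of reads kept by the study's quality filter. It was over 90% in 8 libraries, namely the control and 6 h libraries of 5 to 20 DAP, and under 90% in the other 10. Within the first class the cold to control ratio of c70856_g2_i2 at 6 h ran from 12.9 to 45.0. Within the second class, at 25 and 30 DAP, it was 24.4 and 15.5 at 6 h, and 11.5 and 14.3 at 12 h. With the class as a term in the fit the log2 increase at 12 h was 3.72 (SE 0.35, limma adjusted p = 9.35e-05). All 12 h libraries were of the second class, so within a class the 12 h change could be seen only at 25 and 30 DAP.

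The unigene held a second transcript, c70856_g2_i1, that the naming rule could not find, since its best hit was a hypothetical protein. It was 2323 bp long, carried the same β-amylase domain and was assigned the enzyme number of β-amylase. Its control level ran from 18.1 to 45.7 FPKM with a median of 37.6 FPKM. At 6 h it ran from 672.4 to 1234 FPKM with a median of 817.7 FPKM, and at 12 h from 438.3 to 1004 FPKM with a median of 760.0 FPKM. As with the named isoform, cold and control libraries did not overlap. Its log2 increase after 6 h was 4.63 (SE 0.21, limma adjusted p = 4.33e-09). After 12 h it was 4.39 (SE 0.21) with an adjusted p of 5.09e-08. Among the transcripts of a library ordered by FPKM it ranked from 414 to 779 in the controls and from 8 to 39 in cold.

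Summed over both isoforms, the unigene c70856_g2 held 27.4 to 70.2 FPKM in the controls and 648.4 to 1797 FPKM in the 12 cold libraries. This was 0.0358% to 0.0673% of the summed FPKM of the table in the controls and 0.372% to 1.58% in cold, with the top value at 10 DAP after 6 h. The named isoform made up 32.4% to 39.6% of the unigene's FPKM in the controls, 29.9% to 38.3% at 6 h and 27.2% to 34.0% at 12 h, so the ranges overlapped. Stage by stage, its share at 12 h was below the control at all but 5 DAP. The gap ran from 32.40% against 32.42% at 25 DAP to 27.2% against 37.9% at 15 DAP. At 6 h it was below the control at all but 5 and 25 DAP. The shift was not tested. Reads shared by the isoforms were divided between them by estimation, and the split is therefore less certain than the sum.

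**Figure D2:**
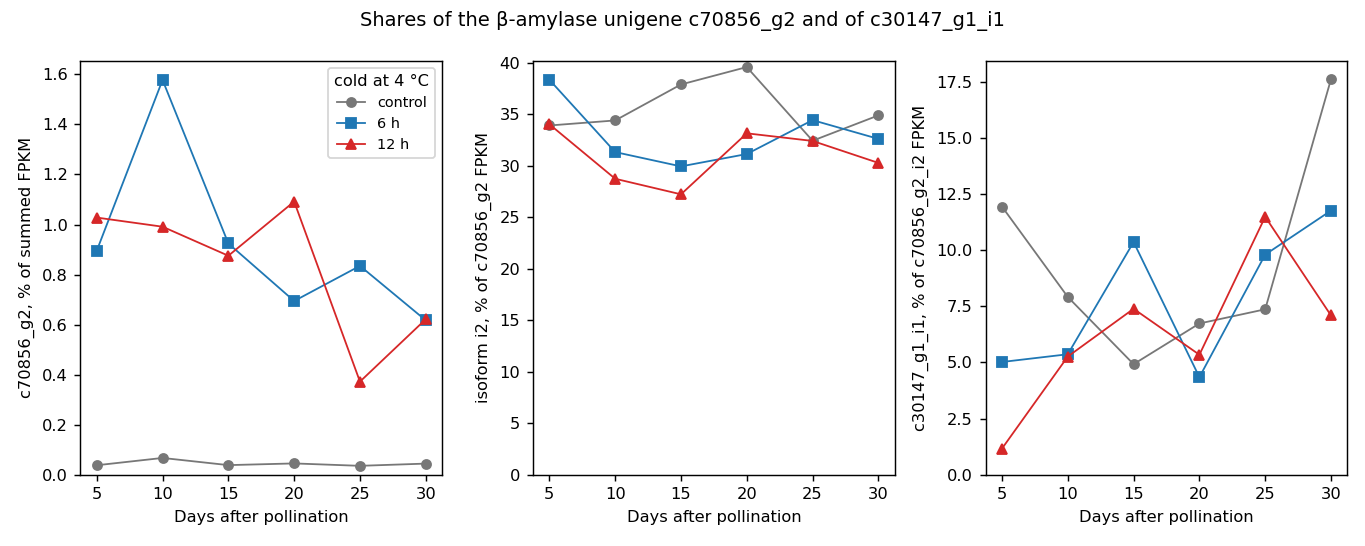
Shares in percent against days after pollination, 1 point per library, for control, 6 h and 12 h: the β-amylase unigene c70856_g2 in the summed FPKM of the table (left), isoform i2 in the FPKM of that unigene (middle) and c30147_g1_i1 relative to c70856_g2_i2 (right). The left panel runs from 0.0358% in a control to 1.58% in cold, while isoform i2 stays between 27.2% and 39.6% of its unigene throughout.

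The second putative β-amylase, c30147_g1_i1, rose from a much lower level. Its controls held 1.11, 1.62, 0.85, 1.63, 1.35 and 4.31 FPKM from 5 to 30 DAP. At 6 h the level was 21.0, 30.2, 40.8, 13.6, 43.9 and 44.5 FPKM, and at 12 h it was 3.50, 15.1, 24.9, 26.6, 24.1 and 24.9 FPKM. All 6 h libraries were above all controls, but the 5 DAP library at 12 h was below the 30 DAP control. The ratio to control ran from 8.34 to 47.9 at 6 h and from 3.15 to 29.3 at 12 h. Its log2 increase after 6 h was 3.55 (SE 0.34, limma adjusted p = 5.57e-06). After 12 h it was 2.77 (SE 0.34) with an adjusted p of 5.58e-05, or 2.79 (SE 0.56) with an adjusted p of 0.00816 when the read class was in the fit.

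At 5 of the 6 stages c30147_g1_i1 was lower at 12 h than at 6 h, and 20 DAP was again the exception. The mean difference was -0.78 (SE 0.34), and its unadjusted p of 0.0398 became 0.297 after adjustment across all transcripts. The early and late increases were 3.16 and 3.15 (SE 0.41 each), and their difference had a 95% interval of -1.29 to 1.27. The transcript was short and sparsely covered. From the mapped reads of each library and the transcript length, its FPKM stood for at most about 4.7 reads in the lowest library and 369.2 in the highest, compared with 307.3 and 20011 for c70856_g2_i2. Its level was 1.17% to 17.6% of that of c70856_g2_i2. Both had a best hit of the same name, and a fragment of the same gene cannot be told apart from a separate copy in these data.

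An annotated process, rather than a name, brought out 3 further transcripts. Besides both isoforms of c70856_g2 and c30147_g1_i1, the gene ontology (GO) term for maltose biosynthetic process was attached to c75347_g1_i1, c129123_g1_i1 and c45854_g1_i1. The first 2 had the same hypothetical protein as best hit as c70856_g2_i1, and the last was an unnamed protein product. They were 380, 790 and 318 bp long, matched over only 47, 86 and 74 amino acids and carried no domain. In their lowest libraries the FPKM stood for at most about 5.2, 8.4 and 8.4 reads. Whether they are fragments of the same gene or separate copies cannot be told apart in these data. The control levels of c75347_g1_i1 ran from 0.66 to 1.59 FPKM, and its cold levels from 10.1 to 35.6 FPKM at 6 h and from 4.57 to 23.1 FPKM at 12 h. For c129123_g1_i1 the controls ran from 0.45 to 6.42 FPKM, the 6 h libraries from 12.1 to 58.4 FPKM and the 12 h libraries from 3.90 to 29.5 FPKM. For c45854_g1_i1 the corresponding ranges were 1.08 to 7.98 FPKM, 25.7 to 82.1 FPKM and 5.82 to 51.8 FPKM. At 6 h none of the 3 overlapped with its controls, and at 12 h c75347_g1_i1 alone did not. How many of all transcripts were without such overlap was not counted, so this describes the single transcripts only, here and for the amylases. All 3 passed the test at both durations, with log2 increases of 3.36 to 3.75 at 6 h and 2.80 to 2.95 at 12 h.

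These low-level relatives followed c30147_g1_i1 more closely than they followed c70856_g2_i2. Over the 12 cold libraries the Pearson correlation of log2(FPKM + 1) with c30147_g1_i1 was 0.869 for c75347_g1_i1, 0.936 for c129123_g1_i1 and 0.971 for c45854_g1_i1. With c70856_g2_i2 it was 0.468, 0.278 and 0.415. The points shared their libraries and durations, and reads may be shared among these similar transcripts, so the values are a description. Together the 4 transcripts outside c70856_g2 supplied 6.88% to 22.4% of the summed FPKM of all 6 transcripts in the controls and 1.98% to 14.0% in cold. The unigene c70856_g2 thus held most of this group's signal in every library.

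**Figure D3:**
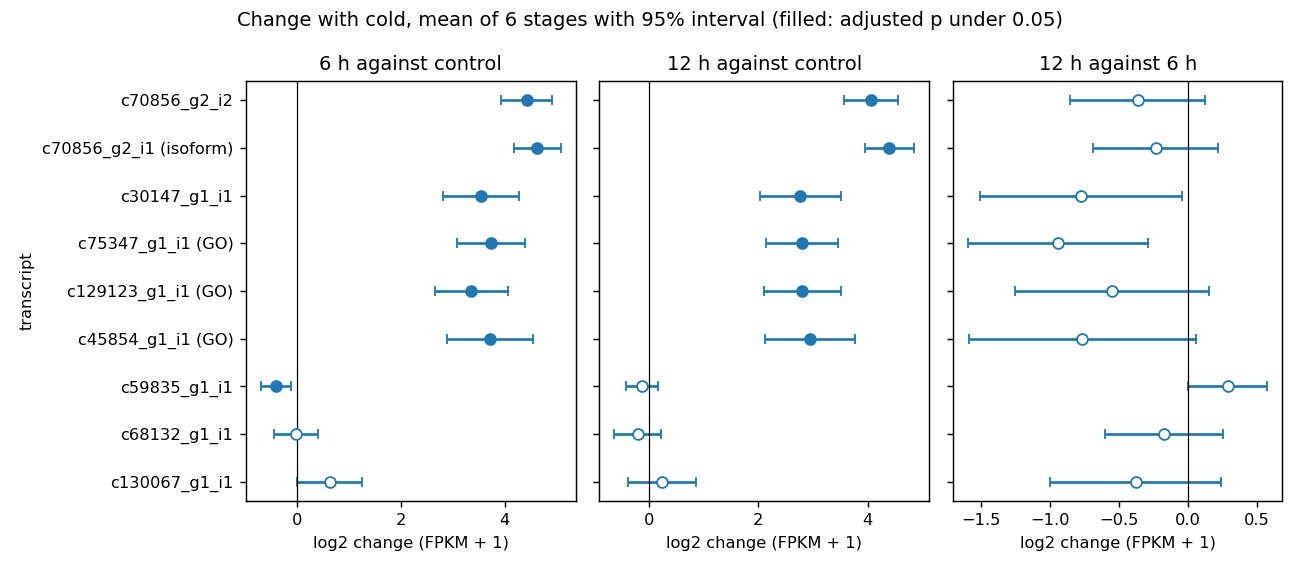
Mean log2 change of FPKM + 1 over 6 stages with its 95% interval (limma), for the 5 amylases, the second isoform of c70856_g2 and the 3 relatives found by the GO term, in 3 comparisons; filled points had an adjusted p under 0.05. The first 6 transcripts sit between 3.36 and 4.63 at 6 h and between 2.77 and 4.39 at 12 h, and no point is filled in the comparison of 12 h with 6 h.

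BMY3 (c59835_g1_i1), the remaining β-amylase, behaved differently. Its controls held 7.99, 2.73, 2.27, 1.62, 1.74 and 0.99 FPKM from 5 to 30 DAP. At 6 h the level was 5.48, 2.06, 1.04, 0.98, 1.34 and 0.56 FPKM, and at 12 h it was 7.85, 2.66, 1.69, 1.90, 0.80 and 1.12 FPKM. It was lower than its control at 6 of 6 stages after 6 h, with ratios of 0.458 to 0.770, although the ranges of the 2 states overlapped. The log2 change at 6 h was -0.40 (SE 0.13), and it just passed the test (limma adjusted p = 0.0461). That call was lost under 10 of 13 alternative settings, over which the change ranged from -0.62 to -0.35 and the adjusted p from 0.0172 to 0.894, and it was lost when any 1 stage other than 25 DAP was left out. At 12 h the change was -0.12 (95% interval -0.41 to 0.17) and did not pass. The FPKM of this transcript stood for at most about 12.6 to 114.8 reads.

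Across development BMY3 was highest at 5 DAP in each of the 3 states, and its early libraries held 1.04 to 7.99 FPKM against 0.56 to 1.90 FPKM in the late ones. The log2 difference of late from early stages was -0.93 (SE 0.44, limma adjusted p = 0.217), which did not pass. At 5 DAP its cold and control libraries were all above those of every later stage, but how many of all transcripts did the same was not counted.

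α-Amylase 1 (c68132_g1_i1) was higher in the late than in the early siliques. With all stages, neither this difference nor its change in cold passed the test. From 5 to 30 DAP the controls held 8.46, 6.95, 13.5, 17.2, 32.2 and 31.0 FPKM. After 6 h the level was 5.28, 8.37, 13.9, 19.3, 26.1 and 39.0 FPKM, and after 12 h it was 2.44, 7.61, 12.0, 22.6, 24.0 and 40.0 FPKM. At each stage from 10 DAP the 3 libraries lay close together, with cold to control ratios of 0.746 to 1.32. The exception was 5 DAP, where the ratio was 0.624 after 6 h and 0.288 after 12 h, a stage with 1 library per state and hence no test. The log2 change over all stages was -0.02 (95% interval -0.45 to 0.41) at 6 h and -0.20 (95% interval -0.62 to 0.23) at 12 h, so changes of the size seen in c70856_g2_i2 lay far outside both intervals.

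All 9 late libraries of α-amylase 1, at 17.2 to 40.0 FPKM, were above all 9 early ones, at 2.44 to 13.9 FPKM. How many of all transcripts were separated in this way was not counted. Over the 18 libraries 374 transcripts of other unigenes had a Pearson correlation over 0.9 with α-amylase 1, so its course was shared by many. In the fit of stage means, which sets 3 late against 3 early stages, its log2 difference was 1.64 (SE 0.40), with an unadjusted p of 0.00509 and a limma adjusted p of 0.0702. It therefore missed the threshold, which 3.43% of all transcripts passed upward and 0.277% downward. Without the 20 DAP stage the difference was 1.86 (SE 0.44, adjusted p = 0.0460) and passed. None of the 5 amylases passed in this comparison with all stages, and 1 had an unadjusted p under 0.05, against 28.0% of all transcripts. Over the same stages the summed level of 30 seed and embryo markers was 3.1 to 21.1 FPKM in the early and 75.6 to 1611 FPKM in the late libraries, with 7 to 20 of them listed at 0 early and 0 to 4 late. Their part in the developmental course of α-amylase 1 was not tested.

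α-Amylase-like 2 (c130067_g1_i1) varied without a clear course until the last stage. Its controls held 4.17, 4.96, 6.49, 5.01, 6.91 and 5.53 FPKM from 5 to 30 DAP, the narrowest control range among the 5 relative to its level. At 6 h it held 6.74, 7.99, 5.19, 7.84, 9.77 and 22.9 FPKM, and at 12 h 11.8, 3.60, 2.22, 7.07, 8.37 and 13.0 FPKM. The highest level was thus the 30 DAP library at 6 h, 4.14 times its control, and the lowest was the 15 DAP library at 12 h, 0.342 times its control. It was higher than the control at 5 of 6 stages after 6 h and at 4 of 6 after 12 h.

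The log2 change of α-amylase-like 2 was 0.63 (SE 0.29, 95% interval 0.01 to 1.25) at 6 h, with an unadjusted p of 0.0479 and a limma adjusted p of 0.155. At 12 h it was 0.25 (95% interval -0.37 to 0.87). In cold over the late stages it was 0.77 (SE 0.36, adjusted p = 0.216), and over the early stages 0.10 (SE 0.36). None of these passed, and the late minus early difference of 0.67 had an interval of -0.44 to 1.78. At 342 bp this fragment stood for at most about 14.5 to 289.8 reads. The naming rule missed c51601_g1_i1, a carbohydrate-binding module family 20 protein with an α-amylase domain and the enzyme number of α-amylase. It was at 0 in 12 libraries, reached at most 1.49 FPKM, at 5 DAP after 6 h, and passed at neither duration.

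Counted by phase, the same 2 β-amylases, c70856_g2_i2 and c30147_g1_i1, rose at the early stages, where 10.6% of all transcripts rose, and at the late stages, where 7.70% did. None of the 5 fell in either phase, where 7.44% and 5.55% of all transcripts did. For the late minus early difference of the cold effect, limma called 0 of the 5 and 0.00% of all transcripts, with 0 of the 5 at an unadjusted p under 0.05 against 5.61% of all. Between 12 h and 6 h it called 0 of the 5 higher, against 1.29% of all, and 0 lower, against 3.62%, with 1 of the 5 at an unadjusted p under 0.05 against 14.9%. In single-library pairs, with no replicate behind them, 23 of the 60 pairs of an amylase, a stage and a duration were at least 4-fold higher in cold on the log2(FPKM + 1) scale. All 23 were of these 2 β-amylases, in which 12 of 12 and 11 of 12 pairs did so, against 3.37% over all transcripts and the same 12 pairs of libraries. In 0 of the 60 pairs was an amylase at least 4-fold lower, against 2.09% over all transcripts, and in 2 it was at least 2-fold lower, against 9.90%. Those 2 were α-amylase 1 at 5 DAP and α-amylase-like 2 at 15 DAP, both after 12 h.

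Ordered by median FPKM over the 18 libraries, c70856_g2_i2 stood first with 306.5 FPKM, followed by c30147_g1_i1 with 18.0 FPKM, α-amylase 1 with 15.6 FPKM, α-amylase-like 2 with 6.83 FPKM and BMY3 with 1.72 FPKM. In the controls alone the order was another one. The β-amylase c70856_g2_i2, with a median of 19.4 FPKM, and α-amylase 1, with 15.4 FPKM, overlapped in range, and α-amylase 1 was the higher of the pair at 25 and 30 DAP. Below them came α-amylase-like 2 with 5.27 FPKM, BMY3 with 2.01 FPKM and c30147_g1_i1 with 1.49 FPKM, whose ranges also overlapped. In cold, c70856_g2_i2 was above each of the other 4 in every library.

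The transcripts whose log2(FPKM + 1) followed c70856_g2_i2 most closely over the 18 libraries, among those with a name and from other unigenes, were 2 isoforms of early-responsive to dehydration 7, 2 transcripts of pseudo-response regulator 9 and a probable folate-biopterin transporter. Early-responsive to dehydration 7 is a gene first described by its induction in drying plants, and pseudo-response regulator 9 is a morning component of the Arabidopsis clock. Their Pearson correlations were 0.974 and 0.972, 0.973 and 0.972, and 0.970. In all, 163 transcripts had a correlation over 0.9. These libraries differ mainly by cold and control, so any transcript with a strong cold change can be among them. For α-amylase-like 2, the closest named transcripts were a chalcone synthase (c72043_g3_i1, 0.760), a sulfate transporter (0.755) and nine-cis-epoxycarotenoid dioxygenase 3 (0.740), and 0 transcripts had a correlation over 0.9.

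For the rest of starch metabolism only annotated processes were at hand, and they covered it loosely. Names of starch synthesis enzymes, of debranching and phosphorylating enzymes, of plastid sugar exporters and of amylase inhibitors matched 0 transcripts of the table. The GO term for starch catabolic process covered 9 transcripts, among them 3 of the 5 amylases. Of the other 6, 4 rose at both durations, namely c70856_g2_i1 and the 3 relatives described above, which are not shown to be separate genes. Over all transcripts 12.6% rose at 6 h and 10.2% at 12 h. The median log2 change of these 6 was 3.54 at 6 h and 2.80 at 12 h. The transcript c72340_g1_i5, a hypothetical protein, fell at 6 h, with a log2 change of -1.38 (SE 0.42, limma adjusted p = 0.0317), and did not pass at 12 h. Annotated to the nucleus and a transcription factor complex, it carried no enzyme number and no domain. Its level was 0.16 to 13.4 FPKM in the controls and 0.03 to 0.43 FPKM at 6 h, and the highest control was that of 25 DAP.

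The larger lists moved little as a whole. Of 76 other transcripts annotated with starch biosynthetic process, from 59 unigenes, 8 were called higher and 6 lower at 6 h. Over all transcripts 12.6% and 9.21% were. The median log2 change of the list was -0.03. At 12 h the counts were 8 and 11, against 10.2% and 11.2% of all transcripts, with a median of -0.14. Of 47 annotated with maltose metabolic process, the counts were 7 higher and 3 lower at 6 h and 7 and 6 at 12 h, beside the same shares. The isoforms c67336_g1_i1, c67336_g1_i2 and c67336_g1_i3 of a single unigene were among those higher at both durations. These lists overlapped, with 97.9% of the maltose list and 60.5% of the starch list in common. The strongest increase in both was that of c67336_g1_i1, a hypothetical protein, whose median was 0.51 FPKM in the controls, 5.66 FPKM at 6 h and 4.62 FPKM at 12 h, with log2 increases of 2.16 (SE 0.16) and 2.03 (SE 0.16). A PR5-like receptor kinase (c57266_g1_i3) also rose, by 0.70 and 1.26, and as a receptor kinase it is not an enzyme of starch metabolism. Other names in both lists, such as argonaute 8, lipoxygenase 2 and glutathione S-transferases, are not those of starch enzymes either. The counts are therefore no measure of starch synthesis.

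Enzymes that cleave or make sucrose were found by name in 12 transcripts from 6 unigenes. At 6 h, 2 of them rose and 0 fell, against 12.6% and 9.21% of all transcripts. At 12 h limma called 0 in either direction, against 10.2% and 11.2%, with 0 at an unadjusted p under 0.05, against 32.2%. Those 2 were isoforms of the cell wall invertase CWINV1, which splits sucrose outside the cell, with log2 increases of 0.87 (SE 0.20) and 0.76 (SE 0.20). Their medians were 0.97 and 1.10 FPKM in the controls, 1.78 and 1.81 FPKM at 6 h, and 0.77 and 0.90 FPKM at 12 h. Both were lower at 12 h than at 6 h, by -1.04 and -0.93 (limma adjusted p = 0.00731 and 0.0177). Of 4 trehalose-phosphate synthases and phosphatases found by name, 0 passed at either duration, and 0 had an unadjusted p under 0.05.

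**Figure D4:**
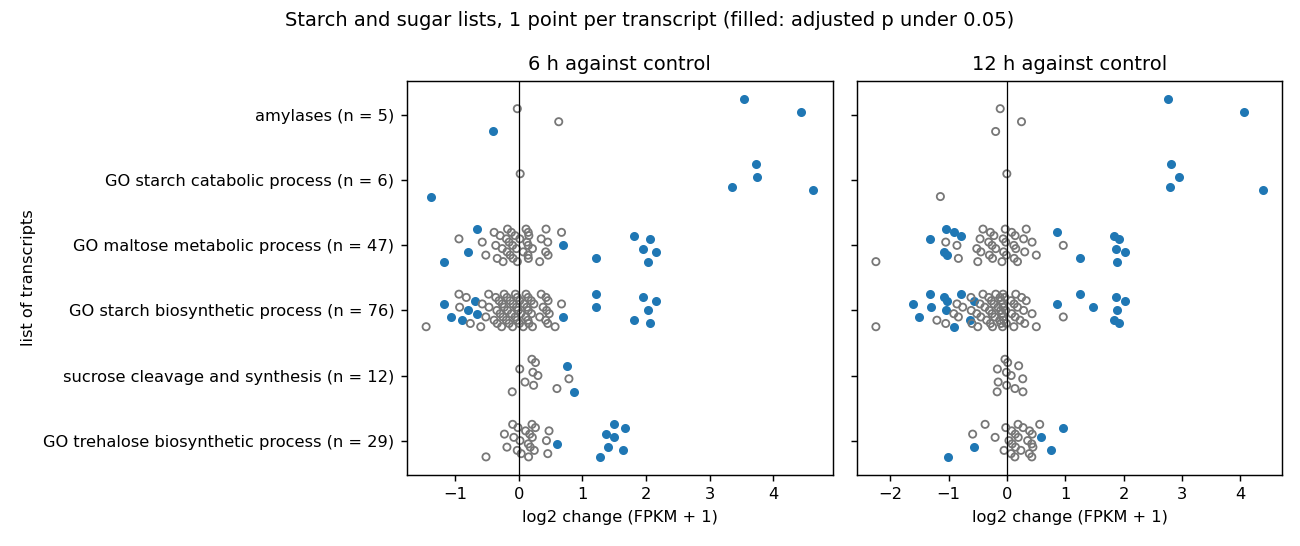
Log2 change of FPKM + 1 after 6 h (left) and 12 h (right) for each transcript of the amylases and of 5 lists, named at the left with their number of transcripts (amylases are left out of the other lists); filled points had a limma adjusted p under 0.05. The 4 filled points on the right of the starch catabolic list lie between 2.80 and 4.63. The starch biosynthetic list of 76, which also holds names from outside starch metabolism, centres near 0.

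The seed markers above were low in young and high in old siliques, as the labelled stages would have it. The course was not particular to them. The 22 pollen and anther markers summed to 15.9 to 139.2 FPKM early and 73.2 to 226.6 FPKM late. Their median log2 difference of late from early stages was 1.30, against 1.39 for the seed list and 0.0053 for all transcripts. The transcript c25648_g1_i1 was in both lists. The 6 transcripts with a chlorophyll-binding domain, 3 of them named early light-induced protein, had a summed level of 162.8 to 258.3 FPKM in the controls and 806.9 to 3691 FPKM in cold, and all 6 rose at both durations. Of the green pod wall markers 1 was in the table, a chlorophyll a-b binding protein, with a median of 4.22 FPKM in the controls, 15.7 FPKM at 6 h and 9.88 FPKM at 12 h. The part of these transcripts in the β-amylase increase was not tested. Of the 30 seed and embryo markers and the 22 pollen and anther markers, limma called 0 at 6 h and 0 at 12 h. An unadjusted p under 0.05 was found for 0 and 1 of the seed list and 0 and 0 of the pollen list. Over all transcripts 12.6% were called higher and 9.21% lower at 6 h, and 10.2% and 11.2% at 12 h. Their shares at an unadjusted p under 0.05 were 31.1% and 32.2%. At a transcript length of 1000 bp, 1 FPKM stood for at most about 11.8 to 58.0 reads, depending on the library, and 11194 to 12462 transcripts were above 0.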

How the data were processed

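Reads of the 18 silique libraries were assembled by the authors with Trinity, aligned with Bowtie2 and quantified by RSEM. The deposited table gives FPKM that the authors normalised by TMM, for the transcripts their own test had called between some pair of libraries, and no count table was used here. The submitters' processing notes name RSEM and edgeR, without versions. Names, GO terms, enzymes and domains came from the deposited annotation table (FastAnnotator). No reference genome was used.

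Tests were run with limma 3.58.1 in R 4.3.3 on log2(FPKM + 1), which understates the change of low transcripts, over the whole table without a filter. Stage was a block and duration the term of interest, 6 h and 12 h were averaged for the phase effects, and late and early stages were compared on stage means. P-values were two-sided, adjusted by Benjamini-Hochberg over the table and called under 0.05. The script was tested on simulated data. Read numbers are upper estimates from the mapped reads of a library and the whole transcript length.

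The amylases, the lists and the tests were chosen with earlier results of these data known, and the GO lists were added after the name lists for starch had matched nothing. Members were all described. Of a list, up to 4 transcripts with the smallest p at 6 h or 12 h could be named, and for likeness the 5 named transcripts with the highest Pearson correlation. c72340_g1_i5 and the second isoform were chosen after their values were seen. Alternatives were a pseudocount of 0.1, a minimum mean of 1 FPKM, a rescaling of libraries by their median ratio, sums per unigene, the read class as a term, leaving out each stage or the 5 DAP 6 h library, no stage block, control libraries only for development, a 2-fold limit, and members taken by domain or enzyme. The deposited libraries carry no replicate numbers beyond 1, so no pairing of replicates other than by stage existed. P-values measure the spread between stages, not between plants.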

Additional observations from a re-analysis of the deposited data

Results flagged for a closer look

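In each of the 5 amylases the 6 stages of a state were examined for a stage far from the others, on log2 levels and on log2 changes. Of 25 such sets, 3 held one, and chance alone gives about 1 in 20. The control level of c70856_g2_i2 was low at 5 DAP, at 3.36 on the log2(FPKM + 1) scale. The control level of c30147_g1_i1 was high at 30 DAP, at 2.41. Its level after 12 h was low at 5 DAP, at 2.17. No amylase changed in 1 direction at every early stage and in the other at every late stage.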

How the results depend on the processing

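The increases of c70856_g2_i2 (log2 4.24 to 4.59 at 6 h, 3.72 to 4.31 at 12 h) and of c30147_g1_i1 (3.36 to 4.16 and 2.56 to 3.32) passed the limma test under each of the 13 alternatives, and no called change turned its sign. The count of amylases lower at 6 h was 1 with all libraries, namely BMY3. It was 0 with a pseudocount of 0.1, under a minimum mean of 1 FPKM and with sums per unigene. It was also 0 without the stage block and without the 5 DAP 6 h library, and 0 to 1 when 1 stage was left out. The cause of these losses was not tested. Taking members by domain or enzyme also gave 0, but that was fixed beforehand, since BMY3 carried neither and so was not a member. Leaving out 1 stage gave 0 to 1 amylases higher late than early, the 1 being α-amylase 1 without 20 DAP. With all 9 transcripts that matched the words, 4 were higher and 2 lower at 6 h, 1 was lower at 12 h, 2 were lower at 12 h than at 6 h, 4 were higher at the early and 1 was lower at the late stages. The shares over all transcripts are those given for the 5 amylases. With a 2-fold limit, 2 of the 60 single-library pairs were lower in place of 0. Stage is the only pairing in these data, and without this block c70856_g2_i2 and c30147_g1_i1 were still called at both durations. Over all transcripts, the counts at 12 h moved from 1367 higher and 1489 lower to 806 and 417 with the read class as a term and to 805 and 512 without the block. At 6 h they moved from 1684 and 1229 to 1033 and 455 without the block. Between 12 h and 6 h they moved from 172 and 483 to 48 and 159 with the read class, to 43 and 169 without the block and to 221 and 384 after rescaling. The early cold effect moved from 1416 and 992 to 531 and 188 with the read class. Late against early gave 0 to 1446 higher transcripts when 1 stage was left out, against 458, and rescaling moved the median of all transcripts there from 0.0053 to -0.1293. The limits are 1 library per stage and state, FPKM without counts, a table selected by the study and reads that similar transcripts may share. Fragments with few reads in some libraries are a further limit for c30147_g1_i1, c59835_g1_i1, c130067_g1_i1 and the 3 relatives found by the GO term.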

Other observations

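The transcripts whose database accession held the letters BAM were no amylases, but several moved in cold. Gibberellin 2 oxidase 1, which inactivates gibberellins, rose at 6 h in both isoforms, with log2 increases of 1.90 (SE 0.18, limma adjusted p = 3.95e-06) for c70061_g2_i7 and 1.20 (SE 0.17, adjusted p = 0.000195) for c70061_g2_i6. Neither passed at 12 h, and both were lower at 12 h than at 6 h, by -1.56 and -0.98 (adjusted p = 0.000105 and 0.00395). Their levels were low, at most 6.38 and 3.89 FPKM. Gibberellin 3 oxidase 1 (c66893_g1_i1), which makes active gibberellins, fell at both durations, by 0.75 and 0.81 on the log2 scale (SE 0.20 each, adjusted p = 0.0167 and 0.0115), and was lower than its control at 6 of 6 stages each time. The thionin c18509_g1_i1 passed at neither duration.

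Of 29 transcripts annotated with trehalose biosynthetic process, 8 rose at 6 h and 0 fell, against 12.6% and 9.21% of all transcripts. At 12 h 3 rose and 2 fell, against 10.2% and 11.2%. Of the 8 that rose at 6 h, 7 were named tricyclene synthase, a terpene synthase and not an enzyme of trehalose synthesis. Its isoform c64767_g1_i8 had a median of 0.16 FPKM in the controls, 2.73 FPKM at 6 h and 0.86 FPKM at 12 h. Between 12 h and 6 h, 7 of the 29 were lower and 1 was higher, against 3.62% and 1.29% of all transcripts. Of 16 transcripts annotated with sucrose biosynthetic process, 3 rose at 6 h and 1 at 12 h, and 0 fell at either, beside the same shares of all transcripts at each duration. The strongest at 12 h was c70365_g1_i2, a hypothetical protein, with a median of 3.80 FPKM in the controls, 11.8 FPKM at 6 h and 21.3 FPKM at 12 h.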
